A study of Mus musculus with 11 samples.

Results

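The 9 genes described here encode secreted proteins that bind bone morphogenetic proteins (BMPs), growth and differentiation factors or activins outside the cell: the BMP antagonists Nog, Grem1, Chrd, Chrdl1, Twsg1 and Bmper, and the follistatin group Fst, Fstl1 and Fstl3. They were chosen by symbol, and all 9 were found among the 22600 genes of the count table and passed the filter on low counts, as did 16496 genes in all. RNA came from whole distal tibial bone, marrow included, of mice on a C57BL6/SJL background, aged 24 weeks and fed ad libitum, with 1 library per mouse. The 4 Control mice had the genotype labelled BMAd-WT, and the 7 BMAd-DTA mice carried in addition a ROSA-DTA allele, in which a LoxP-flanked STOP cassette precedes the diphtheria toxin A chain. Per the study's methods, both groups carried Osterix-FLPo and a FLPo-dependent Adipoq-Cre (FAC), so that the toxin is made, and the cell killed, where both drivers have been active, mainly in bone marrow adipocytes. The Cre also reaches a small subset of the marrow adipogenic lineage precursors, and it does not recombine in every adipocyte. The labels give no sex, and the study's figure legends describe male mice. The libraries go against that, since each held 13810 to 20260 counts of Xist and at most 1 count over 4 Y-linked genes. This held in both groups, so it does not set them apart for Chrdl1, which is on the X chromosome.

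BMPs signal through paired type I and type II serine/threonine kinase receptors to the SMAD proteins SMAD1, SMAD5 and SMAD9, and drive bone formation by osteoblast precursors. Antagonists such as noggin, gremlin 1 and chordin hold the ligand away from its receptors, whereas follistatin binds activins with high affinity and some BMPs more weakly. Chordin can be cut by BMP1 and tolloid-like proteinases, which frees the ligand, and TWSG1 and BMPER can favour or oppose BMP signalling depending on context.

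The libraries held 16969529 to 18637663 counts in the Control group and 17128711 to 18432805 in the BMAd-DTA group. Values are given as CPM, counts scaled to a common library size, and differences as log2 fold changes of BMAd-DTA over Control from edgeR's quasi-likelihood test, two-sided, with adjusted p from Benjamini-Hochberg over all 16496 genes. Labels do not say whether mice shared a litter. Among the cell type markers, the summed level of 8 osteoblast genes did not overlap between the groups, at 3140 to 13300 CPM in Control and 16100 to 36200 CPM in BMAd-DTA mice. The same held for 4 osteocyte genes (324 to 427 against 462 to 818 CPM) and 7 chondrocyte genes (457 to 920 against 1100 to 1350 CPM, with Matn3 at 0 in at least 1 mouse). Such sums follow their most abundant genes. The chondrocyte difference lay mostly in Col2a1 (means of 217 and 468 CPM) and Col11a2 (177 and 388 CPM). Comp (277 and 301 CPM), Acan (48.2 and 54.8 CPM) and Sox9 (4.83 and 5.51 CPM) differed less. Col1a1 (4720 and 12000 CPM) and Col1a2 (3870 and 9250 CPM) made up most of the osteoblast sum. The 10 adipocyte genes overlapped, at 1690 to 2720 CPM in Control and 648 to 1940 CPM in BMAd-DTA mice, and none of them was at 0 in any mouse. The 6 marrow stroma genes lay at 3180 to 4850 and 3140 to 5140 CPM, and skeletal muscle genes spread widely in both groups, from 14.5 to 998 and from 15.4 to 801 CPM. Control mouse 1 stood apart, with the lowest osteoblast sum of all.

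Promoter windows of 250 bases before and 50 after the annotated start were found in RefSeq (GRCm38.p6) for 6 of the 9 genes, and Nog, Chrdl1 and Fst had no entry. Those of Fstl1 and Bmper are shown because the levels of these 2 genes varied together across mice, and that of Grem1 because its fitted difference was the lowest of the 9. Capitals mark matches to the motifs searched, and each sequence runs 5′ to 3′ on the strand of its gene.
Fstl1 (chr16:37776805-37777104, + strand): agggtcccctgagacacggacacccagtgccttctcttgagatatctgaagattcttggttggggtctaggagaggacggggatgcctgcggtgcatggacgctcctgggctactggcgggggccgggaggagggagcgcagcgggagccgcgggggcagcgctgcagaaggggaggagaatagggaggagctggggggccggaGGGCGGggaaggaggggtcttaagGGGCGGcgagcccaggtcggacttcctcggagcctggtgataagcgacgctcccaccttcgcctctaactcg
Bmper (chr9:23222826-23223125, + strand): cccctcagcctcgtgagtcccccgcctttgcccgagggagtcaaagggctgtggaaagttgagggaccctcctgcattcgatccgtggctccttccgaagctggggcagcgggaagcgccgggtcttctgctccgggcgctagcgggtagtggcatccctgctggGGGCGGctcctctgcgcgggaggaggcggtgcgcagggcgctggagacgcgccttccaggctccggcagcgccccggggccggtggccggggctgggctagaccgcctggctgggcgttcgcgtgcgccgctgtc
Grem1 (chr2:113758599-113758898, - strand): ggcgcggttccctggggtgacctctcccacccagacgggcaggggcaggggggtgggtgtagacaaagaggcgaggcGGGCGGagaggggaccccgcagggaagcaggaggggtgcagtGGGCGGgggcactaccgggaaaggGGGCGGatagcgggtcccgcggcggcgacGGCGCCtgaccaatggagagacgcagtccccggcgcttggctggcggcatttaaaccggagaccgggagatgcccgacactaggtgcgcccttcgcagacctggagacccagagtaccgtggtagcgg

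The 6 motifs were searched on both strands in the same windows of 32851 promoters. The GC box GGGCGG was in the windows of all 6 members with an entry and in 35.7% of all promoters. The GC-rich SMAD1/5 element GGCGCC was found for Chrd and Grem1 and in 11.9% of all promoters. The CAGA box CAGACA was found for Chrd and Fstl3 (21% of all promoters), the TATA box TATAAA for Fstl3 (13.6%), and the E box CAGATG for Fstl3 and Twsg1 (17.2%). The SMAD3/4 element GTCTAGAC was in none of the 6 windows and in 0.213% of all promoters. The GC content of the 6 windows was 66.7% (Fstl1) to 78.3% (Chrd), against a median of 52.7% over all promoters, and they held 21 to 34 CpG dinucleotides, against a median of 7.

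Divided by the length of the exons, the levels of the 9 genes spanned a wide range in the Control bones. Fstl1, a secreted glycoprotein of mesenchymal cells, was the most abundant, with a mean level of 43.6 CPM per kb ± 8.76 (SD, n = 4). It was followed by Chrdl1, a chordin-like antagonist (16.4 ± 4.82 CPM per kb), Twsg1 (12.6 ± 0.922), Grem1 (9.05 ± 3.38), Fstl3 (3.92 ± 1.06), Nog (2.17 ± 0.817), Fst (1.88 ± 0.336), Bmper (1.43 ± 0.355) and Chrd (0.489 ± 0.147). By the mean over all 11 mice of both groups, Fstl1 was at percentile 95.2 of all tested genes and Chrd at percentile 11.6. Taken within each of the 11 mice, Fstl1 was above Chrdl1 in 11 and Bmper above Chrd in 11. Neighbours in between were not separated beyond their spread in every pair, since the per-length log2 ratio was 0.34 ± 0.39 (SD) for Chrdl1 over Twsg1, 0.63 ± 0.75 for Grem1 over Fstl3, 0.14 ± 0.59 for Nog over Fst and 0.27 ± 0.37 for Fst over Bmper. The summed level of the 9 genes was 70.2 to 102 CPM per kb in Control and 90.5 to 141 in BMAd-DTA mice, and Fstl1 made up 44.2% to 50.5% of it in Control and 52.9% to 63.2% in BMAd-DTA mice.

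**Figure D1:**
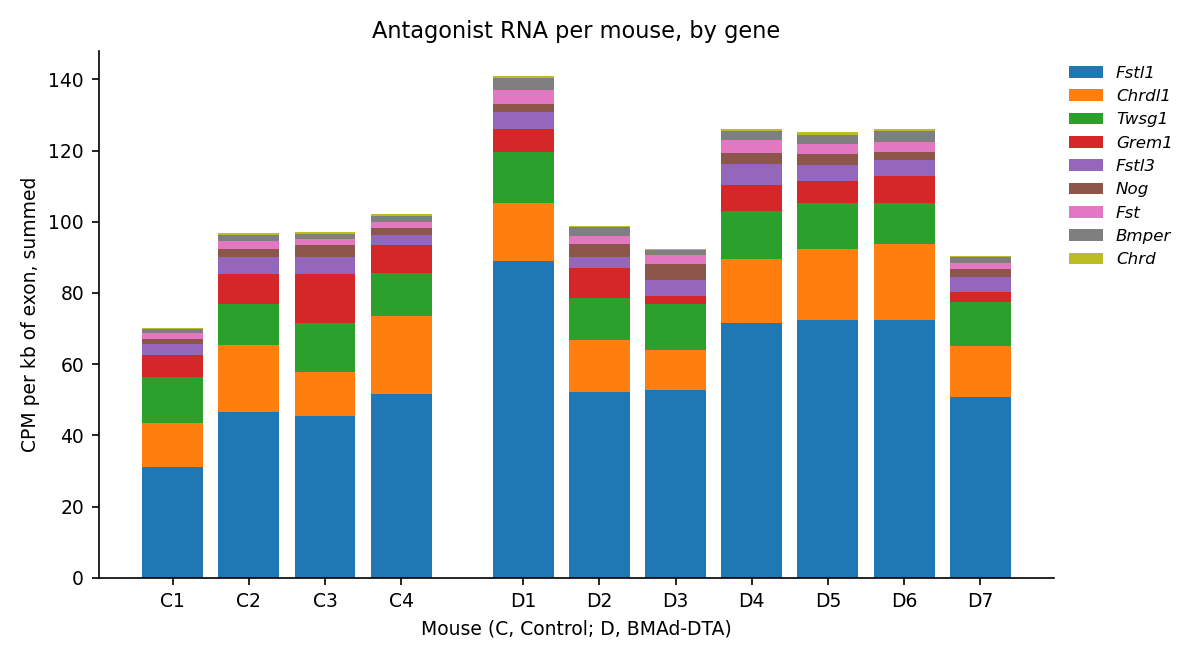
Stacked bars of the summed level of the 9 antagonist genes in CPM per kb of exon, 1 bar per mouse (C, Control, n = 4; D, BMAd-DTA, n = 7), with 1 colour per gene. Fstl1 is the largest segment in every mouse, and the sums run from 70.2 in Control mouse 1 to 141 in BMAd-DTA mouse 1.

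By edgeR, 0 of the 9 genes reached an adjusted p under 0.05, against 0.0788% of all genes tested (13 of 16496), with 0.0727% higher and 0.00606% lower in BMAd-DTA bones. At a looser limit of 0.1 it was again 0 of 9, against 2.55% of all genes (1.44% higher). The groups overlapped for each of the 9, whereas 2.81% of all genes did not overlap (1.78% with BMAd-DTA above). Before adjustment, 3 of the 9 (Fstl1, Bmper and Fst) had p under 0.05, all higher in BMAd-DTA bones, against 16.4% of all genes and 7.89% in that direction. DESeq2, the tool of the study, called Fstl1 and Bmper, both higher, against 5.42% of the genes it tested (2.78% higher). On data simulated with edgeR's dispersion estimates, DESeq2 made more false calls than edgeR or limma-voom. That setting is not neutral between the tools, so it cannot tell whether the calls of Fstl1 and Bmper are false. Limma-voom called 0 of the 9. Fitted differences were above 0 for 7 of the 9 genes, against 50.4% of all genes. Chrdl1 (0.01) and Twsg1 (0.03) are among the 7 and lay near 0. The median of the 9 was 0.18, against 0.00 over all genes. In a bulk sample, more or fewer cells of a type and more or less RNA per cell cannot be told apart.

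**Figure D2:**
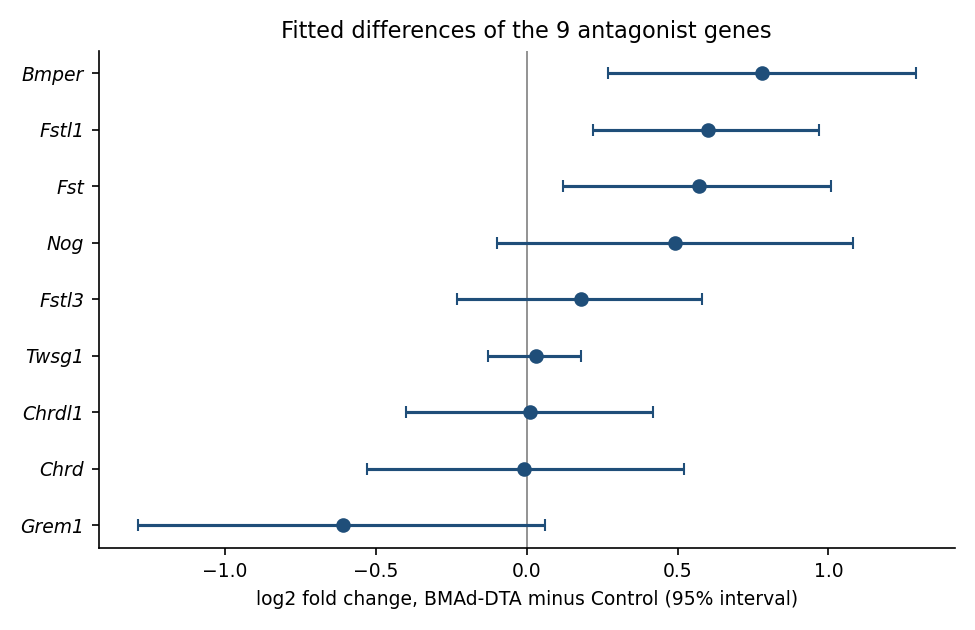
Fitted log2 fold change of BMAd-DTA over Control for each of the 9 genes (point) with its 95% interval (bar), ordered by size. The intervals of Bmper, Fstl1 and Fst lie above 0, those of the other 6 genes include 0, and Grem1 is lowest at -0.61.

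Fstl1 (ENSMUSG00000022816, GRCm38 chromosome 16, 37776873 to 37836514, + strand) was at 153, 229, 224 and 253 CPM in the 4 Control mice. In the BMAd-DTA mice its lowest, median and highest levels were 250, 353 and 439 CPM. Levels in 6 of 7 BMAd-DTA mice exceeded those of all Control mice, and the seventh was just below the highest Control. Among all genes, 15.5% had more than 3 of 7 BMAd-DTA mice above every Control. That limit is looser than 6 of 7, for which the share was not computed. The means were 214 ± 43 CPM (SD, n = 4) and 324 ± 71.3 CPM (SD, n = 7), and the log2 fold change was 0.60 ± 0.17 (SE; 95% interval 0.22 to 0.97), with an adjusted p of 0.117 in edgeR and 0.0151 in DESeq2. By exact permutation of the group labels (330 arrangements, smallest possible p 0.00303), the unadjusted p was 0.00909. Without Control mouse 1, which had the lowest level, the log2 fold change was 0.46.

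Bmper (ENSMUSG00000031963, chromosome 9, 23223076 to 23485200, + strand), which encodes a BMP-binding protein with chordin-like repeats that is best known from endothelial cells, was at 4.46, 8.01, 6.97 and 8.19 CPM in the Control mice. The BMAd-DTA mice ranged from 6.75 through a median of 12.7 to 16 CPM. As for Fstl1, levels in 6 of 7 BMAd-DTA mice exceeded the highest Control, and Control mouse 1 was again the lowest. Bmper had a log2 fold change of 0.78 ± 0.24 (SE; 95% interval 0.27 to 1.29), the largest of the 9, with an adjusted p of 0.125 in edgeR and 0.0221 in DESeq2. The unadjusted p was 0.0242 by exact permutation. Without Control mouse 1 the log2 fold change was 0.62.

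Fst (ENSMUSG00000021765, chromosome 13, 114452290 to 114458951, - strand), the activin-binding protein follistatin, was at 8.82, 10.7, 7.45 and 7.47 CPM in the Control mice. Its levels in the BMAd-DTA mice had a minimum of 7.83, a median of 12 and a maximum of 18.3 CPM. In 5 of 7 BMAd-DTA mice the level exceeded the highest Control. Fst had a log2 fold change of 0.57 ± 0.21 (SE; 95% interval 0.12 to 1.01), with an adjusted p of 0.192 in edgeR and 0.0845 in DESeq2, and an unadjusted p of 0.0485 by exact permutation. Fstl3 (ENSMUSG00000020325, chromosome 10, 79777272 to 79782630, + strand), a follistatin relative that also binds activins and myostatin, was at 9.59 ± 2.6 CPM in Control and 10.8 ± 2.07 CPM in BMAd-DTA mice, with a log2 fold change of 0.18 ± 0.19 (SE) and an edgeR adjusted p of 0.697. Its exons share 1157 bases with Prss57, a neutrophil serine protease gene on the opposite strand. Reads on its own strand were 50.6% to 77.4% of those assigned to it on either strand, against at least 97.1% for the other 8 genes, and in counts made without regard to strand its log2 fold change was 0.32.

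**Figure D3:**
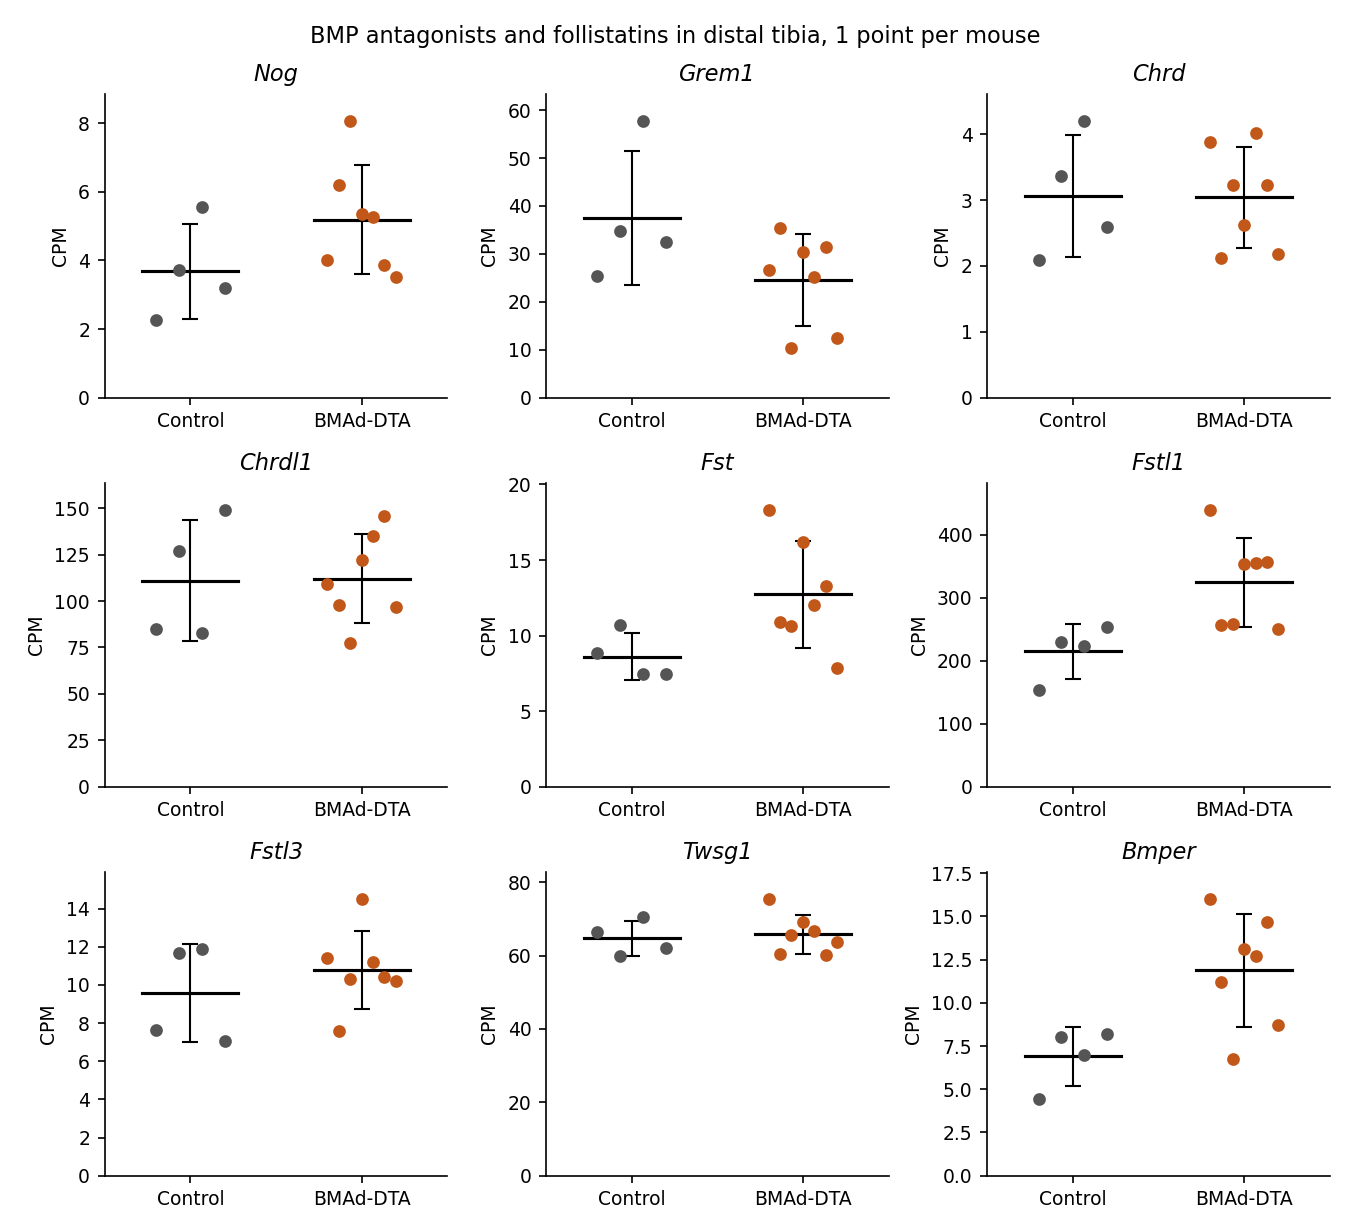
Level of each of the 9 genes in CPM on a linear axis from 0, 1 point per mouse (Control, n = 4; BMAd-DTA, n = 7), with the group mean (line) and SD (bar). Points of the groups overlap in every panel, and for Fstl1 and Bmper 6 of 7 BMAd-DTA points exceed the highest Control.

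Nog (ENSMUSG00000048616, chromosome 11, 89300638 to 89302332, - strand), which encodes noggin and has 1 transcript, was at 2.26, 3.71, 5.55 and 3.21 CPM in the Control mice. In the BMAd-DTA mice the lowest, median and highest values were 3.52, 5.28 and 8.06 CPM. The ranges overlapped between 3.52 and 5.55 CPM, with 2 BMAd-DTA mice beyond the highest Control. Nog had a log2 fold change of 0.49 ± 0.27 (SE; 95% interval -0.10 to 1.08), with an edgeR adjusted p of 0.394. It was 0.76 without Control mouse 3 and 0.32 without Control mouse 1.

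Grem1 (ENSMUSG00000074934, chromosome 2, 113746164 to 113758646, - strand), which encodes gremlin 1, was the antagonist with the lowest fitted difference. It was at 25.4, 34.7, 57.7 and 32.4 CPM in the Control mice, and at a lowest, median and highest level of 10.4, 26.6 and 35.4 CPM in the BMAd-DTA mice. The BMAd-DTA group reached further down, with 3 mice below every Control, and Control mouse 3 reached furthest up. The log2 fold change was -0.61 ± 0.31 (SE; 95% interval -1.29 to 0.06), with an edgeR adjusted p of 0.348, and it was -0.33 without Control mouse 3. With a coefficient of variation of 37.3% in Control and 39% in BMAd-DTA mice, where counting alone gives 4.41%, Grem1 was among the most variable of the 9.

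Chrd, Chrdl1 and Twsg1 had means that lay close together in the 2 groups. Chrd (ENSMUSG00000006958, chromosome 16, 20733127 to 20742384, + strand), which encodes chordin, was at 3.06 ± 0.918 CPM in Control and 3.04 ± 0.764 CPM in BMAd-DTA mice, with a log2 fold change of -0.01 (95% interval -0.53 to 0.52). Its mean of 53.6 counts per library gives a counting error of 13.7%. Chrdl1 (ENSMUSG00000031283, chromosome X, 143285674 to 143394262, - strand) was at 111 ± 32.6 and 112 ± 23.8 CPM, with a log2 fold change of 0.01 (95% interval -0.40 to 0.42). Twsg1 (ENSMUSG00000024098, chromosome 17, 65921972 to 65951226, - strand), a partner of chordin, was at 64.7 ± 4.75 and 65.9 ± 5.33 CPM. It varied least among mice, and its log2 fold change of 0.03 (95% interval -0.13 to 0.18) had the narrowest interval of the 9.

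Across the 11 mice, 153 relations among the 9 genes and between them and the mean log2 CPM of each marker list were computed, each with 100000 permutations. These permutations moved mice freely across the 2 groups, so a pooled p also takes in any group difference that both sides share. Values within groups had each group's mean removed and were not tested. Only 1 of the pooled relations passed adjustment, by Pearson's r and not by Spearman's rho. Fstl1 and Bmper varied together, with Pearson's r of 0.95 (permutation p = 3e-05, adjusted p = 0.00459) and Spearman's rho of 0.85 (permutation p = 0.00204, adjusted p = 0.171). Without the 2 mice farthest from the median, r was 0.88, and it was 0.89 within groups. Within the 7 BMAd-DTA mice alone r was 0.85 (exact permutation p = 0.0131, adjusted p = 0.319).

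Several relations with marker scores were high within the BMAd-DTA mice, but none of them passed adjustment. For Fstl1, r with the marrow stroma score over all 11 mice was 0.39 (permutation p = 0.23, adjusted p = 0.749), rho was 0.04 (permutation p = 0.922, adjusted p = 0.976), and r was 0.17 without the 2 mice farthest from the median. Within the 7 BMAd-DTA mice r was 0.79 (exact permutation p = 0.0381, adjusted p = 0.389). For Bmper, r over all mice was 0.43 (permutation p = 0.181, adjusted p = 0.749), rho was 0.26 (permutation p = 0.434, adjusted p = 0.976), and r was 0.24 without the 2 farthest mice. Within the BMAd-DTA group r was 0.84 (exact permutation p = 0.0185, adjusted p = 0.319). Within the same mice Fstl1 had a higher r with the endothelial score, 0.93 (exact permutation p = 0.00139, adjusted p = 0.106), and a similar one with the adipocyte score, 0.83 (exact permutation p = 0.0379, adjusted p = 0.389), and Bmper had 0.82 with the endothelial score (exact permutation p = 0.0177, adjusted p = 0.319). Over all 11 mice those 3 values were 0.16, -0.16 and 0.14 (permutation p = 0.629, 0.638 and 0.688, adjusted p = 0.9 for each). Spearman's rho was 0.15, -0.41 and 0.19 (permutation p = 0.653, 0.214 and 0.574, adjusted p = 0.976, 0.907 and 0.976), and r without the 2 farthest mice was 0.48, 0.12 and 0.41. Within groups the 3 values of r were 0.52, 0.55 and 0.47. The osteoblast score separated the groups, so Nog was related to it within the BMAd-DTA mice, with r of 0.86 (exact permutation p = 0.0133, adjusted p = 0.319). Over all 11 mice r was 0.86 (permutation p = 0.00075, adjusted p = 0.0574), rho was 0.82 (permutation p = 0.00329, adjusted p = 0.171), and r was 0.64 without the 2 farthest mice. Within the BMAd-DTA mice Nog also had r of -0.86 with the skeletal muscle score (exact permutation p = 0.02, adjusted p = 0.319). Over all 11 mice that r was -0.46 (permutation p = 0.164, adjusted p = 0.749), rho was -0.16 (permutation p = 0.635, adjusted p = 0.976), and r without the 2 farthest mice was -0.24. With the osteocyte score Nog had r of 0.80 within the BMAd-DTA mice (exact permutation p = 0.0304, adjusted p = 0.357) and 0.82 over all 11 (permutation p = 0.00186, adjusted p = 0.0949). For Fst and the endothelial score, r within the BMAd-DTA mice was 0.92 (exact permutation p = 0.000397, adjusted p = 0.0607). Over all 11 mice it was 0.45 (permutation p = 0.168, adjusted p = 0.749), rho was 0.41 (permutation p = 0.212, adjusted p = 0.907), and r without the 2 farthest mice was 0.21. With the marrow stroma score, Chrdl1, whose group means lay close together, had higher r than Fstl1 or Bmper over all mice and within the BMAd-DTA mice. Within groups the order was the reverse, with r of 0.75 for Chrdl1, 0.85 for Fstl1 and 0.88 for Bmper. For Chrdl1, r over all mice was 0.71 (permutation p = 0.0166, adjusted p = 0.283) and rho was 0.68 (permutation p = 0.0252, adjusted p = 0.394). Without the 2 farthest mice its r was 0.55, and within the BMAd-DTA mice 0.87 (exact permutation p = 0.0123, adjusted p = 0.319). The part of these cell types in the differences between groups was not tested.

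**Figure D4:**
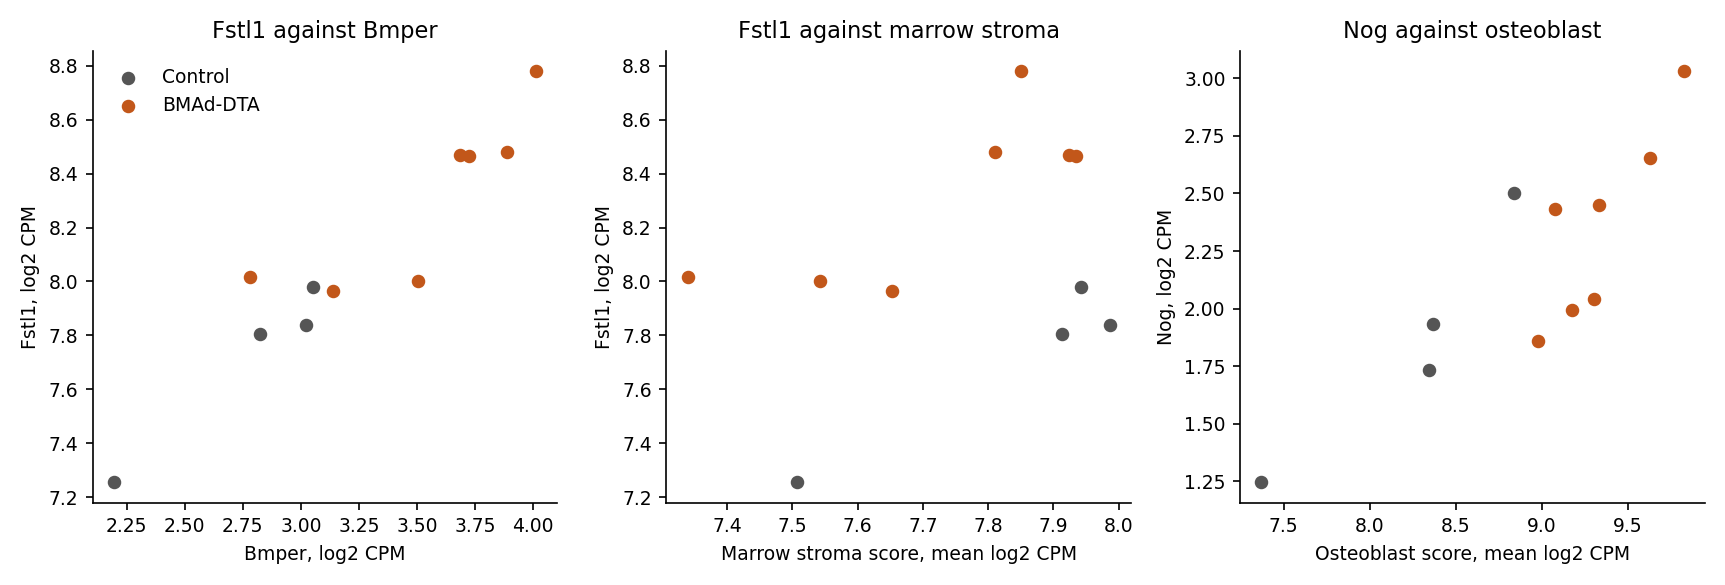
Levels in log2 CPM, 1 point per mouse in the colour of its group: Fstl1 against Bmper, Fstl1 against the marrow stroma score, and Nog against the osteoblast score, where a score is the mean log2 CPM of a marker list. Fstl1 and Bmper lie along 1 line across both groups, and the osteoblast score of every BMAd-DTA mouse is above that of every Control mouse.

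As a description, the genes of the table with the most similar pattern over the 11 mice were listed for each antagonist by Pearson's r of log2 CPM, among 12972 genes. For Fstl1 these were Bmper (0.95), Plbd2 (0.94) and Fras1 (0.92), and for Bmper they were Fstl1 (0.95), Plbd2 (0.91) and Armcx2 (0.89). Those of Fst were Dact3 (0.94), Prickle2 (0.89) and Acvr1 (0.89), the last a type I receptor for BMPs and activins. Nog was most like Arhgap42 (0.96), Als2cl (0.95) and Tanc1 (0.95). Grem1 was most like Pelo (0.90), Klrk1 (0.90) and Epas1 (0.87), Chrd like Slc27a1 (0.89), Kcnip3 (0.85) and Adamts7 (0.85), and Chrdl1 like Afg1l (0.94), Smim7 (0.87) and Mgmt (0.86). For Fstl3 they were Ajm1 (0.90), Nfasc (0.90) and Dock4 (0.89), and for Twsg1 Dclre1c (0.90), Map3k4 (0.89) and Dst (0.88). These are the highest of many values, so r is high by selection.

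Of the 71 other genes listed for the pathway, 61 were tested. In edgeR's test, 1 of them was called, against 0.0788% of all genes. At an unadjusted p under 0.05, 20 had a higher and 4 a lower level in BMAd-DTA bones, against 7.89% and 8.53% of all genes. The gene that passed was the ligand Gdf10, also known as BMP3B, which rose from 73.7 ± 16.4 CPM (SD, n = 4) to 131 ± 16.9 CPM (SD, n = 7), with a log2 fold change of 0.83 ± 0.13 (SE) and an edgeR adjusted p of 0.0384. Gdf10 was above every Control in 7 of 7 BMAd-DTA mice, as were 1.78% of all genes. This call depended on the mice included: when each of the 11 mice was left out in turn, Gdf10 was called in 2 fits (without Control mouse 3 or 4) and not in the other 9, with edgeR adjusted p from 0.0246 to 0.164. Among the 15 ligands tested, 12 had a fitted difference above 0, the median being 0.41 on the log2 scale, with extremes of -0.38 (Gdf5) and 0.97 (Bmp7, adjusted p = 0.0675 in edgeR and 7.84e-05 in DESeq2).

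Of the proteins that act on the antagonists, the chordin proteinase Tll2 had the largest fitted difference, with means of 0.627 and 2.75 CPM and a log2 fold change of 2.12 ± 0.40 (SE; adjusted p = 0.0675 in edgeR and 4.89e-05 in DESeq2), and Tll1 had 0.04. The median of the 3 proteinases was 0.94. The other BMP antagonists, 12 tested, had a median of 0.19, and 0 of them passed by edgeR. DESeq2 called Sost, Bambi and Nbl1 among them, all higher (adjusted p = 0.000282, 0.0109 and 0.0182, against 0.0675, 0.106 and 0.108 in edgeR). It called 5.42% of all the genes it tested (2.78% higher). Sost, with means of 125 and 216 CPM, is also an osteocyte marker above. In edgeR at an unadjusted p under 0.05, 3 of the 12 were higher and 2 lower in BMAd-DTA bones, against 7.89% and 8.53% of all genes. The highest value, 1.08 ± 0.78 (SE), was that of Kcp, which was near the floor. Its means were 0.241 and 0.513 CPM, with 0 counts in at least 1 mouse. Of the 12 receptors, 5 lay above 0 and 7 below, with a median of -0.02 and extremes of -1.33 (Acvr1c, adjusted p = 0.125 in edgeR and 0.0211 in DESeq2) and 0.34 (Acvr1). All 8 genes of the SMAD relay had fitted values above 0 with a median of 0.06, from Smad1 (0.02) to Smad9 (0.63). The 11 BMP target genes tested had a median of 0.39, from Id2 (0.02) to Sp7 (1.12, adjusted p = 0.0675 in edgeR and 1.82e-05 in DESeq2), the osteoblast transcription factor osterix, which is also 1 of the 8 osteoblast markers above.

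**Figure D5:**
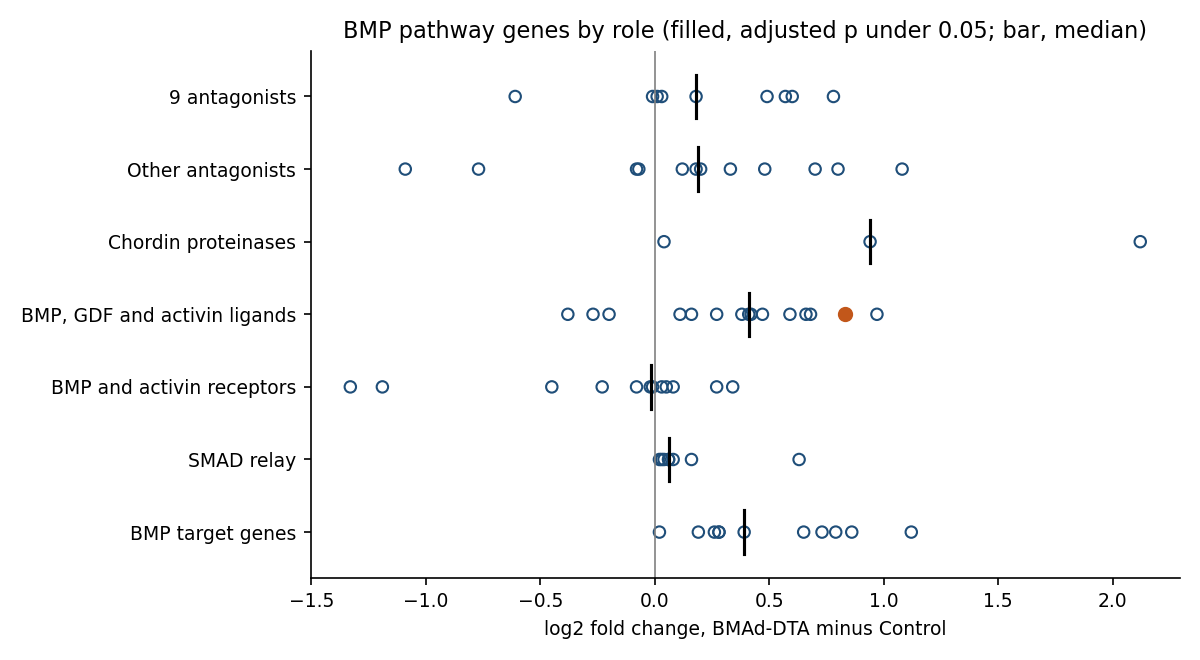
Fitted log2 fold change of BMAd-DTA over Control for every tested gene of the 7 lists, 1 point per gene, with the list's median as a bar and filled points for an adjusted p under 0.05. The only filled point is Gdf10, and the medians run from -0.02 for the receptors to 0.94 for the chordin proteinases.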

How the data were processed

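RNA of whole distal tibiae, 1 library per mouse, was sequenced as stranded paired-end reads. The submitters' processing notes name FastQC 0.11.9, STAR, DESeq2 and the build mm10, and the authors deposited raw counts per gene, both per library and merged, with no normalization. The annotation release is not given in the sources used here. Gene positions and exon lengths came from GENCODE M21 (99.9% of identifiers matched).

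For the merged counts, edgeR 4.0.16 under R 4.3.3 was used (genes kept by filterByExpr, TMM factors, glmQLFit and glmQLFTest with genotype as the only term), with Benjamini-Hochberg adjustment and a threshold of 0.05. SE was the log2 fold change over the square root of F. CPM used TMM-scaled library sizes. The common biological coefficient of variation was 0.202. DESeq2 1.42.0, limma 3.58.1 (voom), other scalings, filters, strand settings, covariates and leaving out each mouse were alternatives. Log2 CPM used a prior count of 2. Strand-specific counting leaves genes that overlap on the other strand separable, but reads that map to several places are not in the counts.

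The tests were checked on simulated data: estimates were unbiased, but recovery of changed genes was incomplete and fell short of the level first set for it, which was then lowered, so a missed call says little about a low gene. DESeq2 made more false calls than edgeR there and was exempt from the limit set on them. The simulated counts were drawn with edgeR's dispersion estimates.

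The members and lists were chosen with earlier results of these data known. Named genes were all 9 members, in each pathway list those past the threshold and the highest and lowest fitted value, and for each member the 3 most alike genes averaging at least 50 counts. A result that this rule names is not reported here. The 6 promoter motifs are all those searched.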

Additional observations from a re-analysis of the deposited data

How the results depend on the processing

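No antagonist was called in any fit that left out 1 mouse (0 to 0). The number of genes called among all tested, 13, was 845 with DESeq2, 238 with voom and sample quality weights, 32 with the robust fit, 20 with voom, 20 with RLE scaling, 3 with a skeletal muscle score as covariate and 421 at an adjusted p under 0.1. Leaving out 1 mouse gave 0 to 292 (0 without Control mouse 1 or 2 or BMAd-DTA mouse 1 or 6, 3 without BMAd-DTA mouse 4, 8 without BMAd-DTA mouse 3, 89 without Control mouse 4, 292 without Control mouse 3). The other pathway genes called, 1, became 14 with DESeq2, which called 5.42% of all the genes it tested. They were 9 with quality weights, 4 with the robust fit, 0 with the muscle score, and 0 to 10 without 1 mouse. Gdf10 was not called with the muscle, stroma or endothelial score (edgeR adjusted p 0.0893, 0.0639 and 0.0765). DESeq2 called 2 antagonists, Fstl1 (0.59) and Bmper (0.78). The exact permutation test, which is not adjusted, put Fstl1 (difference of mean log2 CPM 0.59), Bmper (0.76) and Fst (0.53) under 0.05.

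Fits with the marrow stroma score or the endothelial score as covariate were chosen after seeing the data. The stroma fit called 8 genes, 2 antagonists and 0 other pathway genes, with Fstl1 at 0.74 and Bmper at 0.98, both at an edgeR adjusted p of 0.0497, just under the threshold. The endothelial fit called 0 antagonists and 0 other pathway genes, with edgeR adjusted p of 0.0989 for Fstl1 and 0.116 for Bmper. Over the alternatives, adjusted p ran from 0.0151 to 0.186 for Fstl1 and from 0.0221 to 0.19 for Bmper, and from 0.0974 to 0.376 and from 0.107 to 0.388 without 1 mouse.

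The log2 fold changes of Chrd and Chrdl1, near 0 and not called, changed sign. Chrd was 0.006 with voom, 0.004 with upper quartile scaling, 0.024 with unstranded counts, 0.023 with the muscle score, 0.10 with the stroma score, 0.068 with the endothelial score and 0.00018 by permutation. Chrdl1 was -0.035 with quality weights, -0.004 with library totals and -0.002 with the muscle score. Without 1 mouse, Chrd ran from -0.151 to 0.185, Chrdl1 from -0.103 to 0.186, Twsg1 from -0.011 to 0.073, Nog from 0.318 to 0.763, Grem1 from -0.761 to -0.327, Fst from 0.457 to 0.686, Fstl1 from 0.463 to 0.684, Fstl3 from 0.052 to 0.300 and Bmper from 0.620 to 0.882. The cause of these shifts was not tested. No paired analysis was possible because the labels give no replicate numbers that tie mice across groups.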
